A study of Mus musculus with 4 samples.

Results

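The insulin-like growth factor (IGF) genes were described across 4 Affymetrix arrays of C3H10T1/2 cells. They comprise the ligand genes Igf1 and Igf2, the receptor genes Igf1r and Igf2r, and the binding protein genes Igfbp2, Igfbp3, Igfbp4, Igfbp5, Igfbp6 and Igfbp7. Every probe set annotated to one of these 10 symbols alone was taken, which gave 28 of the 45037 probe sets tested, and 10 of 18193 genes. The tested cells had been given 100 ng/ml recombinant human BMP3 (bone morphogenetic protein 3, a ligand of the TGF-beta superfamily) for 6 hours (2 arrays), and the control cells had not been treated (2 arrays). Both groups were the same mouse mesenchymal stem cell line, a single line established from C3H mouse embryos, grown in standard culture. Each group has biological replicates 1 and 2 by its labels. The question was which transcripts differ after short exposure to BMP3.

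IGF1 and IGF2 are small secreted growth factors that both signal through IGF1R, a receptor tyrosine kinase that acts by way of insulin receptor substrates, PI3 kinase and Akt. IGF2R has no kinase: it binds IGF2 and carries it to lysosomes for breakdown, besides sorting lysosomal enzymes. The IGF binding proteins hold the ligands outside the cell, prolong their life and limit or release their access to the receptor, and proteases free the ligand by cutting them. In mesenchymal cells and bone the system is known for supporting growth, survival and differentiation.

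Before any value, the DNA just upstream of 3 genes is shown, because Igf1, Igf2 and Igfbp4 are the genes with a probe set of mean log2 6 or more at which both BMP3 arrays lay under both control arrays. The same held for 24.7% of all probe sets of that brightness. The Igf2 probe set reached 6 through the control arrays alone and so had to be lower in BMP3 arrays. The choice of the 3 is thus only a description. Each run is the 250 bases before a RefSeq transcription start in build GRCm38.p6, read 5′ to 3′ on the gene's strand. Capitals mark matches on either strand to 3 motifs. The TATA box was searched as TATAAA or ATAAAA. A GC-rich motif bound by BMP-activated SMADs was searched as GGCGCC. The SMAD box was searched as CAGAC. The Igf1 window lies at chr10:87860861-87861110 on the plus strand, the Igf2 window at chr7:142657497-142657746 on the minus strand, and the Igfbp4 window at chr11:99040994-99041243 on the plus strand. Igf2 has 4 starts in the table, and the one nearest the gene's 3′ end is printed. Igf1 and Igfbp4 have 1 each.
Igf1: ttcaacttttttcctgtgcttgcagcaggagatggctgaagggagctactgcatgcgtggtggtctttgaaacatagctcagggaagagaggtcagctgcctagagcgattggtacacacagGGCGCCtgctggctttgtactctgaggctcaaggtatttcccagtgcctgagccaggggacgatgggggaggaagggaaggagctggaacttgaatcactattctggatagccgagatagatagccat
Igf2: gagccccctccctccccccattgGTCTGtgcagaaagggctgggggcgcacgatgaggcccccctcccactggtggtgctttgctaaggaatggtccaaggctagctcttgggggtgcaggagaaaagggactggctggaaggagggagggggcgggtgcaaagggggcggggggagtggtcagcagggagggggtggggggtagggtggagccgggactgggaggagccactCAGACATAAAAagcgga
Igfbp4: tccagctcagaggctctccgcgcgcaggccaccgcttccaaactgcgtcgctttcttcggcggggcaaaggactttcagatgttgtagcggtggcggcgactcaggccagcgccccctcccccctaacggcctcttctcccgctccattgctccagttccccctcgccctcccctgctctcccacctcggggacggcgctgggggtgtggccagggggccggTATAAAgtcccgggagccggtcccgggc
In these windows the Igf1 sequence held 1 GGCGCC, whose first base was 128 bases before the start. The Igf2 sequence held CAGAC letters beginning 227 and 17 bases before the start, the nearer one directly followed by ATAAAA at 12 bases. The Igfbp4 sequence held TATAAA 28 bases before the start. Over the full windows of 300 bases, which run on past the start, 14 starts of the 10 genes could be searched. GGCGCC was in 1 of these 14, against 11.9% of 32851 windows of the same length for all genes. CAGAC was in 8, against 49.6%, and TATAAA or ATAAAA in 3, against 24.7%. The GC box letters GGGCGG were in 6, against 35.7%, and TGTTTAC, the letters of a FoxO motif, in 0, against 3.65%. These matches are descriptions of letters and not of bound sites.

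The arrays were alike in overall level, with median log2 values of 3.31 to 3.40. The 10 mesenchymal markers searched were all at a log2 value of 6 or more on every array. Of 5 epithelial markers only Epcam was (9.49 and 9.63 in BMP3, 9.37 and 9.56 in control arrays), and 0 of 5 endothelial, 0 of 4 haematopoietic and 0 of 4 hepatocyte markers were. The log2 of the summed marker level was 18.24 to 18.34 in BMP3 and 18.32 to 18.37 in control arrays for mesenchymal markers, and 9.54 to 9.69 and 9.44 to 9.62 for epithelial ones. It was 4.37 to 4.41 in BMP3 and 4.40 to 4.41 in control arrays for endothelial markers, 5.62 to 5.79 and 5.54 to 5.59 for haematopoietic ones, and 4.55 to 4.61 and 4.59 to 4.59 for hepatocyte ones. The brightest genes weigh most in such sums. Singly, 3 of the 10 mesenchymal markers had higher and 7 lower BMP3 means. The groups lay apart for 3 with higher and 1 with lower values, against 26.1% and 21.7% of genes averaging 6 or more. The log2 difference, BMP3 minus control, was 0.73 (SE 0.10) for Thy1, 0.64 (SE 0.19) for Cd44 and -0.73 (SE 0.52) for Pdgfra. None passed the adjusted test. BMP3 replicate 1 stood apart in the ratio of 3′ to 5′ control probe sets. Its log2 3′ minus 5′ difference for Gapdh was -0.09, with -0.44 in BMP3 replicate 2 and -0.55 and -0.56 in control arrays, and for beta-actin 0.73, with 0.38, 0.48 and 0.39. The control probe sets for 18S rRNA and for the bacterial transcripts phe, dap, lys and thr were lower in both BMP3 arrays without overlap. Averaged over its probe sets, 18S rRNA read 8.99 and 9.90 in BMP3 arrays, against 11.41 and 10.50 in control arrays. Dap read 9.13 and 8.85 in BMP3 arrays, against 10.39 and 9.86 in control arrays, and thr, the dimmest, 5.43 and 5.43 against 6.22 and 5.59. Phe read 6.52 and 6.57 in BMP3 arrays, against 8.03 and 7.07 in control arrays, and lys 6.11 and 6.37 against 7.45 and 6.48. The controls bioB, bioC and bioD overlapped between the groups, and cre read 15.49 and 15.53 in BMP3 arrays, against 15.56 and 15.53 in control arrays. The part of these control transcripts in the IGF values was not tested.

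Over all genes no difference passed the adjusted test, and so none of the IGF genes did. With limma and Benjamini-Hochberg adjustment over all probe sets, 0 of the 28 IGF probe sets had an adjusted p under 0.05, against a background of 0% (smallest adjusted p of any probe set 0.213). At an unadjusted p under 0.05, 2 of the 28 were counted, 1 of Igf2 and 1 of Igf1r, against 8.39% of all probe sets. When a 1.5-fold difference was also asked for, 1 was lower in BMP3 arrays (Igf2) and 0 higher, against 2.00% and 0.808% of all probe sets. That count of 1 became 7 without BMP3 replicate 1 (5 lower and 2 higher), 3 without BMP3 replicate 2 and 2 without control replicate 1. The share of all probe sets past the same threshold was 5.06%, 3.63% and 2.38% in those fits. Of the 28 probe sets, 19 reached a mean log2 of 6 over the 4 arrays, a level used here to tell brighter from dim ones. Over all 28, the BMP3 and control arrays did not overlap for 9 with lower and 1 with higher BMP3 values, against 23.3% and 12.9% of all probe sets, and the median log2 difference, BMP3 minus control, was -0.02, as over all probe sets. Of the 19, 17 averaged at least 6 in each group, and 2 reached that level through the control arrays alone (Igf1 1434413_at and Igf2 1448152_at). These 2 had to be lower in BMP3 arrays, so the counts and medians over the 19 are given only as a description. Groups did not overlap for 7 of the 19 with lower BMP3 values, those 2 included, and for 1 with higher, against 24.7% and 23.9% of the 17152 probe sets of that brightness. The median difference was -0.25 over the 19 and 0.00 over the 17152. The other 9 were dim, and 6 of them lay under the median of every array.

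Igf1, which encodes the main growth hormone-dependent IGF and is also made locally by mesenchymal cells, had the largest mean differences of the 10 genes, and also the widest spread between replicates. Its brightest probe set, 1437401_at, read 4.82 and 9.13 in BMP3 replicates 1 and 2, against 9.34 and 10.62 in control replicates 1 and 2 (log2 intensity). Probe set 1434413_at read 2.37 and 7.08 in BMP3 arrays, against 7.19 and 8.71 in control arrays. In both, the BMP3 arrays lay under the control arrays without overlap, and BMP3 replicate 1 lay far under the other 3, in 1434413_at under its own array's median. Probe set 1452014_a_at read 5.89 and 7.81 in BMP3 arrays, against 7.60 and 8.99 in control arrays. Here BMP3 replicate 2 overlapped the control range. The dim 1419519_at read 3.30 and 4.15 in BMP3 arrays, against 4.39 and 6.71 in control arrays, with no overlap.

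**Figure D1:**
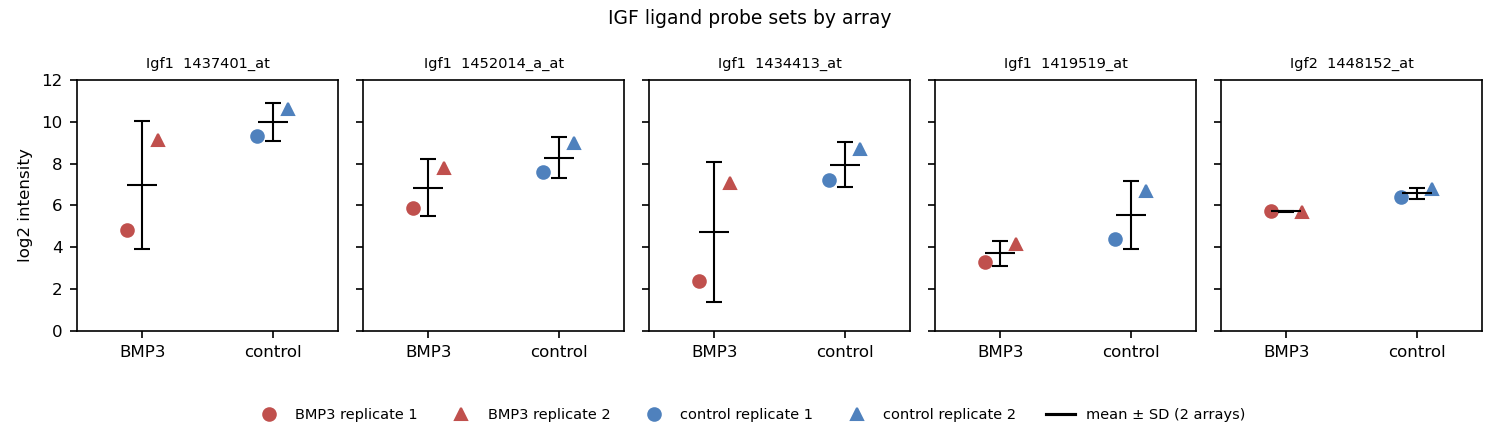
Log2 intensity (y axis) of the 4 Igf1 probe sets and the brighter Igf2 probe set, with BMP3 arrays left of control arrays; circles are replicate 1, triangles replicate 2, and bars the mean ± SD of 2 arrays. Igf1 in BMP3 replicate 1 sits far below the other arrays in 1437401_at (4.82) and 1434413_at (2.37). The BMP3 arrays of Igf2 lie close together (5.73 and 5.71), and its control arrays lie further apart (6.40 and 6.76).

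The mean of 1437401_at was 6.97 ± 3.05 in BMP3 and 9.98 ± 0.91 in control arrays (SD, n = 2 each), a log2 difference of -3.01 (SE 1.79, 95% confidence interval -8.52 to 2.50, limma adjusted p = 0.854). Igf1 differed by -3.23 (SE 1.96) at 1434413_at, by -1.44 (SE 0.94) at 1452014_a_at and by -1.83 (SE 0.98) at 1419519_at, and the interval of each included 0. The 4 probe sets of Igf1 thus shared a direction, but each difference was smaller than the wider of its within-group gaps between replicates. The size rested on BMP3 replicate 1. With it left out, the differences of the 3 brighter probe sets were -0.85, -0.48 and -0.87, and with BMP3 replicate 2 left out they were -5.16, -2.40 and -5.58, in the order 1437401_at, 1452014_a_at, 1434413_at. Leaving out control replicate 1 gave -3.65, -2.14 and -3.99, and leaving out control replicate 2 gave -2.37, -0.75 and -2.47.

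The gap between the BMP3 replicates at 1437401_at, 4.31 log2 units, was exceeded by 2 of the 17152 brighter probe sets of the whole array. At 1434413_at the gap was 4.71, but BMP3 replicate 1 lay under its array's median there and may not be above background, so neither this gap nor the difference of -3.23 is exact. The control replicates also differed at Igf1. Their gap was 1.52 at 1434413_at and 1.28 at 1437401_at, exceeded by 62 and 128 of the brighter probe sets. BMP3 replicate 1 was also the array with the 3′ to 5′ differences given above, and their part in its Igf1 values was not tested. In arrays of whole cultures, fewer cells of a type that make a transcript and less RNA per cell cannot be told apart.

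Igf2, the fetal IGF ligand, expressed from the paternal allele in most mouse tissues, had a difference that both replicates of each group shared. Probe set 1448152_at read 5.73 and 5.71 in BMP3 arrays, against 6.40 and 6.76 in control arrays. The groups did not overlap, and the BMP3 replicates were only 0.02 apart. Both BMP3 arrays lay under the level of 6, so this probe set counted as brighter through the control arrays alone. The mean was 5.72 ± 0.01 in BMP3 and 6.58 ± 0.26 in control arrays (SD, n = 2 each), a log2 difference of -0.86 (SE 0.15, 95% confidence interval -1.32 to -0.41), or 1.82-fold lower. Its limma p was 0.00859 unadjusted and 0.355 adjusted, so it did not pass the test. With any 1 array left out Igf2 stayed between -1.05 and -0.68, and averaged with the gene's other, dim probe set it was -0.44. Quantile normalization gave -0.69 (SE 0.19) and median centring -0.83 (SE 0.13). The other Igf2 probe set, 1415931_at, lay at 2.75 to 2.78 on all 4 arrays, under every array's median, so no difference was read from it.

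Igf1r, the signalling receptor for both ligands, read slightly higher in BMP3 arrays at its 3 brighter probe sets. Its brightest, 1452982_at, read 13.12 and 13.15 in BMP3 arrays, against 12.58 and 12.87 in control arrays, without overlap. The difference was 0.41 (SE 0.12, 95% confidence interval 0.03 to 0.78), 1.33-fold, with a limma p of 0.0399 unadjusted and 0.550 adjusted, and ran from 0.26 to 0.55 with an array left out. Probe set 1428967_at, designed from the same sequence record, read 12.53 and 12.55 in BMP3 arrays, against 12.02 and 12.60 in control arrays. The BMP3 arrays lay inside the control range here, and the difference of 0.23 (SE 0.23) became -0.055 without control replicate 1. The third, 1426565_at, read 10.32 and 10.91 in BMP3 arrays, against 10.11 and 10.74 in control arrays. Its difference of 0.19 (SE 0.35) became -0.10 without BMP3 replicate 2 and -0.12 without control replicate 1. The 2 further Igf1r probe sets were dim and their groups overlapped, with 3.50 to 5.54 over the 4 arrays at 1446303_at and 3.91 to 4.61 at 1452108_at.

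Igf2r, the clearance receptor for IGF2, had no common direction at its 2 probe sets. Probe set 1424112_at read 12.52 and 12.09 in BMP3 arrays, against 12.37 and 12.28 in control arrays, a difference of -0.02 (SE 0.18, 95% confidence interval -0.57 to 0.52). Probe set 1424111_at read 11.94 and 11.23 in BMP3 arrays, against 11.76 and 11.18 in control arrays, a difference of 0.12 (SE 0.37, 95% confidence interval -1.01 to 1.25). Both signs turned with some array left out, and that of 1424112_at under median centring as well (0.017). The groups overlapped in both, and the intervals leave room for a change in either direction. A further probe set is annotated to both Igf2r and Airn, the antisense transcript of the imprinted Igf2r locus, and names no gene. It was dim, at 3.11 and 3.49 in BMP3 and 3.06 and 3.05 in control arrays.

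**Figure D2:**
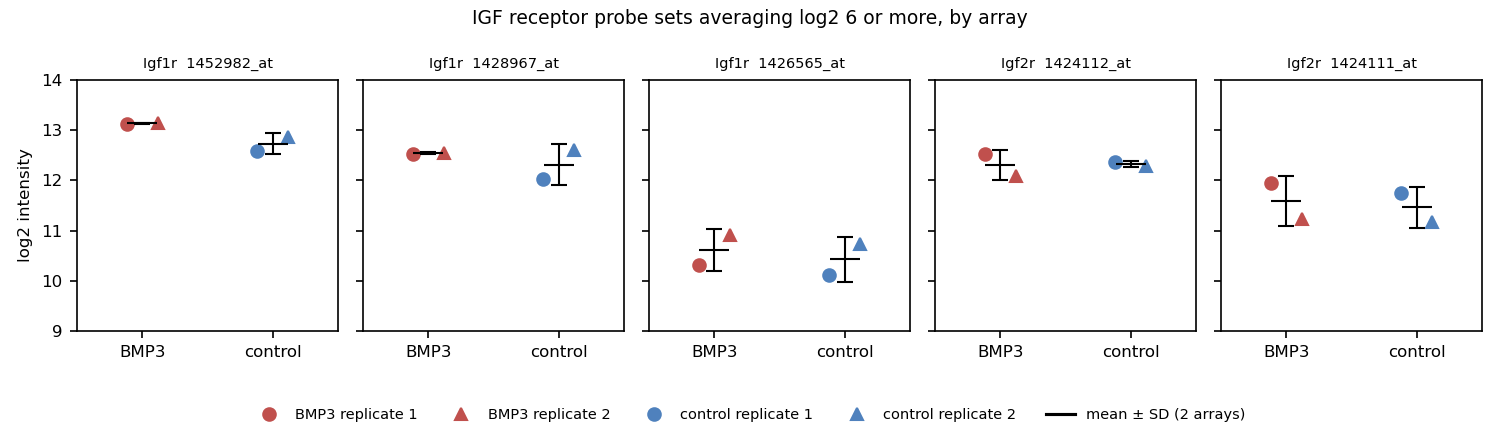
Log2 intensity (y axis, which does not start at 0) of the Igf1r and Igf2r probe sets with a mean log2 of at least 6, with BMP3 arrays left of control arrays; circles are replicate 1, triangles replicate 2, and bars the mean ± SD of 2 arrays. The BMP3 arrays lie above the control arrays without overlap at Igf1r 1452982_at (13.12 and 13.15 against 12.58 and 12.87), and the groups overlap at the other probe sets.

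Igfbp4, which encodes a mostly inhibitory binding protein that the protease PAPP-A cuts, had lower BMP3 means at all 5 of its brighter probe sets. The groups did not overlap at 4 of them, against 24.7% of all probe sets of that brightness with lower BMP3 values. The brightest, 1437405_a_at, read 11.01 and 10.58 in BMP3 arrays, against 11.30 and 11.28 in control arrays, a difference of -0.50 (SE 0.17, 95% confidence interval -1.04 to 0.04, limma adjusted p = 0.634). Probe set 1423756_s_at read 9.13 and 8.57 in BMP3 arrays, against 9.62 and 9.31 in control arrays, a difference of -0.62 (SE 0.25). In both the control arrays were higher, and BMP3 replicate 2 was the lowest array. The differences of 1437406_x_at, 1423757_x_at and 1421992_a_at were -0.31, -0.46 and -0.25, and at the last BMP3 replicate 1 lay above control replicate 2. All 5 stayed negative under every alternative, from -0.89 to -0.026 with an array left out. Without BMP3 replicate 1 the brightest had -0.71, and without BMP3 replicate 2 -0.28. The 5 are not independent. Probe sets of Igfbp4 came in 3 pairs designed from the same sequence record each, and the suffixes s and x mark probes that can match other transcripts. The sixth, 1421991_a_at, lay at 1.46 to 1.52.

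Igfbp3, which encodes the main carrier of IGFs in blood and can also act on cells by itself, differed between the BMP3 replicates rather than between the groups. Probe set 1423062_at read 10.49 and 9.24 in BMP3 arrays, against 10.07 and 10.18 in control arrays. Probe set 1458268_s_at read 8.70 and 7.61 in BMP3 arrays, against 8.05 and 8.28 in control arrays. In both, BMP3 replicate 1 was the highest and BMP3 replicate 2 the lowest of the 4 arrays. The differences were -0.26 (SE 0.50) and -0.01 (SE 0.44). Leaving out BMP3 replicate 2 gave 0.37 at 1423062_at, and leaving out BMP3 replicate 1 gave -0.89. That of 1458268_s_at was 0.54 and -0.55 under the same changes, and turned to 0.069 under quantile normalization and 0.030 under median centring.

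Igfbp5, which encodes a binding protein that attaches to bone matrix, read 6.63 and 7.25 in BMP3 arrays, against 6.11 and 6.73 in control arrays, at its brighter probe set 1422313_a_at. The groups overlapped. The difference was 0.53 (SE 0.35, 95% confidence interval -0.55 to 1.60, limma adjusted p = 0.868) and became 0.83 when BMP3 replicate 1 was left out and 0.22 when BMP3 replicate 2 was. Leaving out control replicate 1 gave 0.22, and leaving out control replicate 2 gave 0.84.

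Igfbp7, which encodes a related protein of low IGF affinity, read 13.66 and 14.42 in BMP3 arrays, against 13.67 and 13.82 in control arrays, at 1423584_at. It read 6.55 and 8.07 in BMP3 arrays, against 6.88 and 7.41 in control arrays, at 1423585_at. BMP3 replicate 1 was the lowest and BMP3 replicate 2 the highest array in both, the reverse of Igfbp3. The differences of 0.29 (SE 0.31) and 0.17 (SE 0.64) turned to -0.091 and -0.60 without BMP3 replicate 2. Igfbp2, an RGD-containing binding protein, and Igfbp6, which prefers IGF2, each had 1 probe set, at 2.49 to 2.66 and at 2.16 to 2.20 on the 4 arrays. The dim probe sets of Igfbp5 and Igfbp7 lay at 2.27 to 2.35 and at 0.62 to 0.65. All 4 were under the median of every array.

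**Figure D3:**
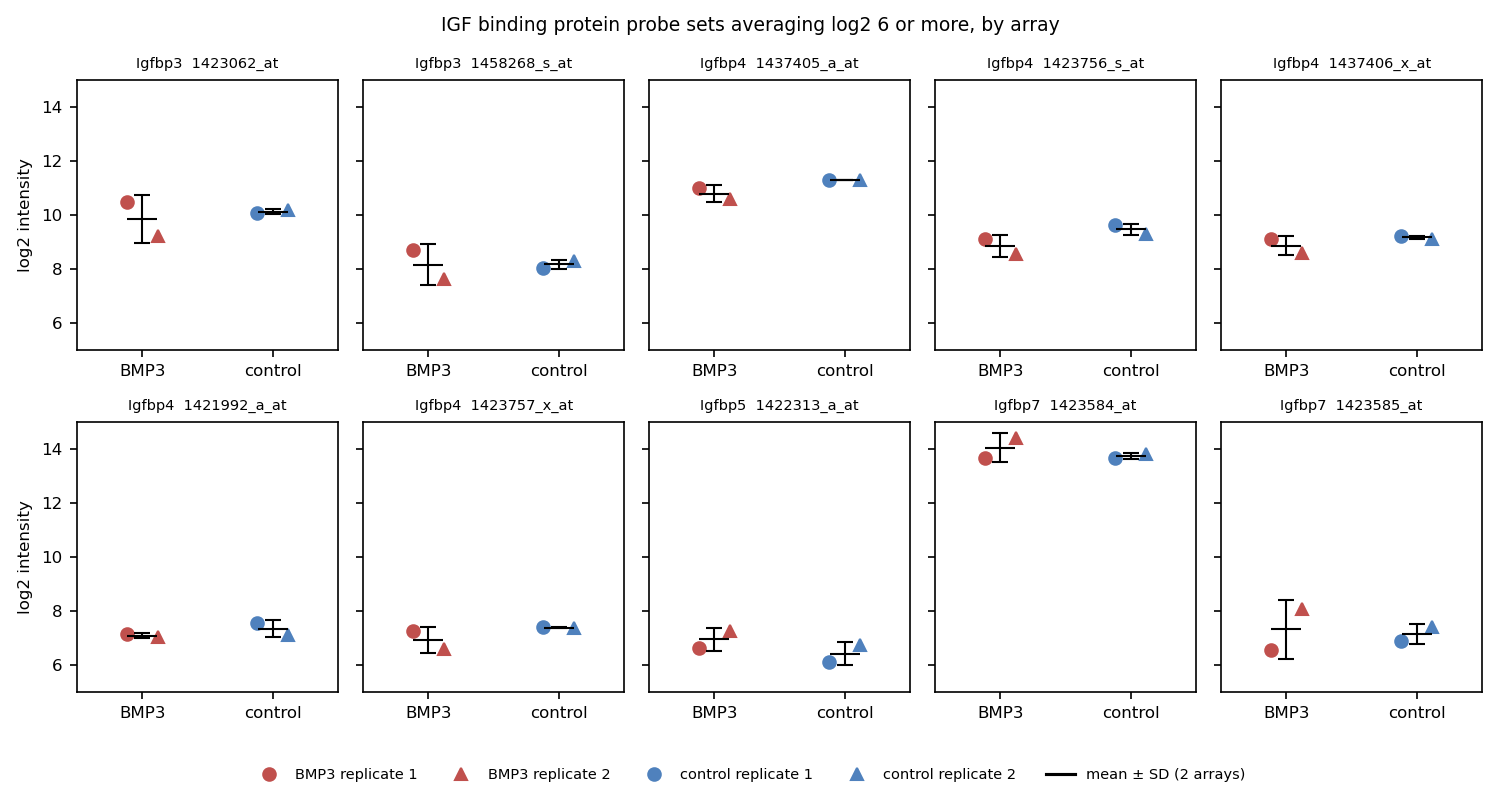
Log2 intensity (y axis, which does not start at 0) of the binding protein probe sets with a mean log2 of at least 6, with BMP3 arrays left of control arrays; circles are replicate 1, triangles replicate 2, and bars the mean ± SD of 2 arrays. Igfbp4 lies lower in BMP3 arrays without overlap at 4 of 5 probe sets, which are not independent, against 24.7% of all probe sets of that brightness. The BMP3 replicates of Igfbp3 and Igfbp7 are spread apart in opposite order.

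Within groups, the brighter IGF probe sets had larger median gaps between replicates than all probe sets with a mean log2 of 6 or more. They come from 8 genes and are not independent, and the probe sets compared were not matched in level. The median gap between the BMP3 replicates was 0.62 over the 19 brighter IGF probe sets and 0.23 over all 17152, and that between the control replicates was 0.36 and 0.17. By role, the 4 brighter ligand probe sets had lower BMP3 means throughout (2 of them counted as brighter through the control arrays alone, as given above), 4 of the 5 receptor probe sets had higher ones, and the 10 binding protein probe sets split into 3 higher and 7 lower. The receptor split was not stable, as given above for Igf1r and Igf2r.

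**Figure D4:**
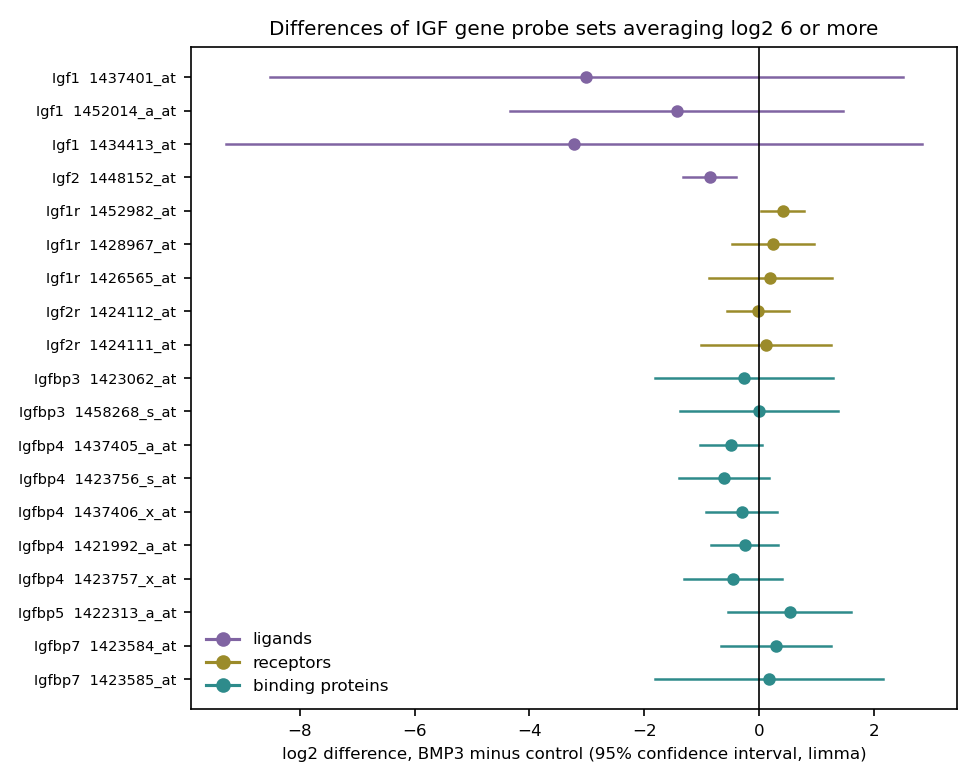
Log2 differences, BMP3 minus control (x axis), with 95% confidence intervals from limma, for the 19 IGF probe sets with a mean log2 of at least 6. The intervals of Igf2 1448152_at and Igf1r 1452982_at leave out 0 before adjustment, those of the 17 others include it, and the Igf1 intervals are the widest.

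A further list held other genes that bind IGFs, cut their binding proteins or belong to the Igf2 locus and its mRNA. Of its 15 measured genes at their brightest probe set, 4 had a mean log2 of at least 6, of which 1 had a higher and 3 a lower BMP3 mean. None of the 15 passed the adjusted test or the looser one, against 0% and 2.83% of all 18193 genes. Htra1, a secreted serine protease that can cut IGF binding proteins, read 7.46 and 7.53 in BMP3 arrays, against 7.77 and 7.77 in control arrays, a difference of -0.27 (SE 0.04, limma adjusted p = 0.332). Insr, the insulin receptor gene, read 9.97 and 9.62 in BMP3 arrays, against 10.19 and 10.15 in control arrays, a difference of -0.38 (SE 0.14). For these 2 of the 4 genes the BMP3 arrays lay under the control arrays without overlap, against 21.7% of all genes of that brightness. Kazald1, which encodes a secreted protein with an IGF-binding-protein domain, differed by -0.24 (SE 0.18), and Igf2bp1, which encodes a protein that binds Igf2 mRNA, by 0.02 (SE 0.11). Pappa, which encodes the protease of IGFBP4, was dim, at 5.62 and 6.16 in BMP3 arrays and 4.77 and 6.44 in control arrays. The median of the 4 brighter genes was -0.25, or -0.15 without BMP3 replicate 2 and -0.11 under quantile normalization.

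Inside the cell, the 35 measured genes of insulin and IGF receptor signalling all had a mean log2 of at least 6, and 20 had higher and 15 lower BMP3 means. The groups did not overlap for 10 with higher and 9 with lower values, against 26.1% and 21.7% of all 9185 genes of that brightness. Their median difference of 0.03 was close to the 0.02 of those genes. Sos2, an exchange factor that activates Ras, read 10.34 and 10.42 in BMP3 arrays, against 10.96 and 10.95 in control arrays, a difference of -0.58 (SE 0.05, limma adjusted p = 0.224). Rptor, the raptor subunit of the mTORC1 kinase complex, read 8.82 and 8.91 in BMP3 arrays, against 8.41 and 8.41 in control arrays, a difference of 0.45 (SE 0.05, limma adjusted p = 0.264). Both were named for the smallest unadjusted p of the list, a choice that favours close replicates and groups that lie apart. Tsc1, which encodes an inhibitor of mTORC1, differed by -0.33 (SE 0.05), and Pik3ca, a catalytic subunit of PI3 kinase, by -0.21 (SE 0.05). Gab1, an adaptor that recruits PI3 kinase, was named after its values were seen, as the 1 gene past the looser threshold (-0.60, SE 0.16), against 2.83% of genes of that brightness in that direction. That count was 2 under quantile normalization and 0 under an ordinary linear model, which lost Gab1, against 2.73% and 1.25% of all genes.

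FoxO transcription factors are held out of the nucleus by Akt, so their target genes are a known readout of IGF signalling. Of 20 targets measured, 18 had a mean log2 of at least 6, and 5 of these had higher and 13 lower BMP3 means. The groups lay apart for 1 with higher and 6 with lower values, against 26.1% and 21.7%. Cdkn1b, the cell cycle inhibitor p27, read 12.10 and 11.90 in BMP3 arrays, against 12.82 and 12.63 in control arrays, a difference of -0.72 (SE 0.11, limma adjusted p = 0.336). It was the 1 gene of the list past the looser threshold, against 2.83% of all genes. Without BMP3 replicate 1 there were 4, against 5.62% of all genes. Cat, which encodes catalase, read 13.43 and 13.34 in BMP3 arrays, against 13.77 and 13.67 in control arrays, a difference of -0.33 (SE 0.06). Sesn1, a stress-induced inhibitor of mTORC1, read 11.98 and 11.39 in BMP3 arrays, against 12.54 and 12.29 in control arrays, a difference of -0.74 (SE 0.26). Insr, given above, is also a FoxO target. The median over the 18 was -0.29, with 0.02 over all genes of that brightness. Leaving out BMP3 replicate 1 gave -0.58, leaving out BMP3 replicate 2 gave -0.040, and leaving out control replicate 1 gave -0.13, so its size rested on single arrays. The median deviation of the 18 from each gene's mean over all arrays was 0.06 and -0.50 in BMP3 replicates 1 and 2. In control replicates 1 and 2 it was 0.31 and -0.02. The groups thus overlapped for the list, with BMP3 replicate 1 above control replicate 2.

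**Figure D5:**
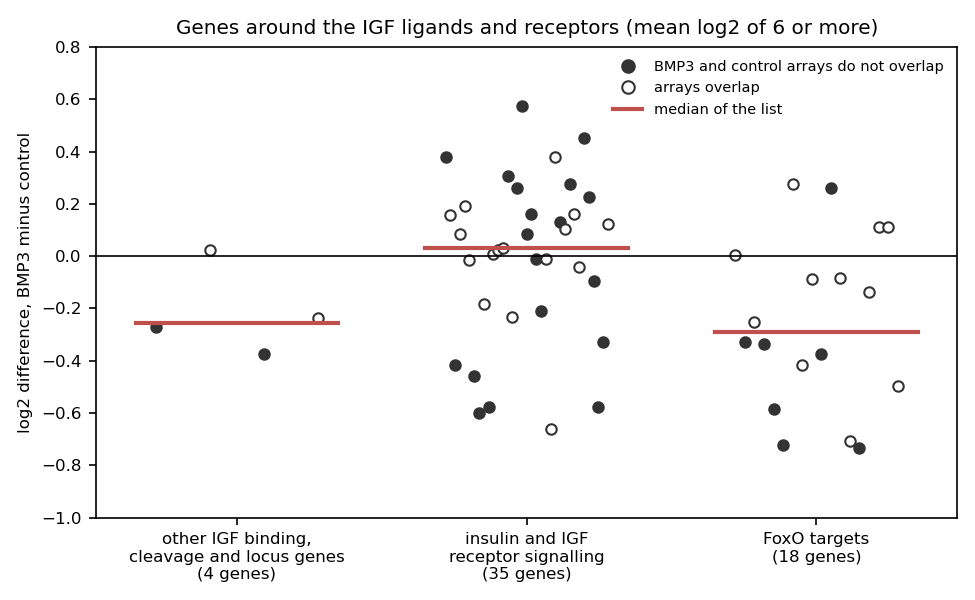
Log2 differences, BMP3 minus control (y axis), of genes with a mean log2 of at least 6 in 3 lists around the IGF ligands and receptors; filled points are genes whose BMP3 and control arrays do not overlap, and red lines are list medians. The signalling genes are centred near 0 (median 0.03) and the FoxO targets lie mostly below it (median -0.29).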

How the data were processed

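Biotin-labelled cRNA of total RNA was put on Affymetrix arrays of the 3′ kind, as the labels' protocols state. The deposited table holds 1 value per probe set and array, from 0.59 to 16.94. These deposited values were read as log2 intensity, a scale inferred from their range. The submitters' processing notes name Partek. How background was corrected, arrays normalized and probes summarised is not given in the sources used here. Had the scale another base, every fold would change. A normalization that equalises arrays would hide a shift of most transcripts.

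Values were used as deposited, after 64 control probe sets were left out. Symbols came from the platform annotation. Of 45037 probe sets, 34945 carried 1 symbol, 932 several, which name no gene, and 9160 had no listed symbol. Groups and replicate numbers came from sample titles. Two-sided tests used limma 3.58.1 (lmFit, eBayes, 1.18 prior degrees of freedom) under R 4.3.3, adjusted over all probe sets. The fit was tested on simulated data. The precision is limited by 2 arrays per group. No detection calls were used, and a log2 level of 6 marked brighter probe sets.

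IGF genes and the further lists were chosen with earlier results of these data known. All IGF probe sets were named, and from each further list up to 4 brighter genes of smallest unadjusted p. Values for 5 genes of these lists are not analysed here. Promoter sequences are RefSeq's, build GRCm38.p6, and all 10 genes matched by symbol. Alternatives comprised quantile normalization, median centring, a replicate block, leaving out single arrays, a brightness filter, other variance models, adding 16 on the linear scale, and averaging of probe sets.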

Additional observations from a re-analysis of the deposited data

How the results depend on the processing

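The count of probe sets past the adjusted threshold was 0 with any array left out and under every other alternative except a trended and robust variance prior, which gave 1 (Rarres2, no IGF gene, dim in both groups). The count of IGF probe sets past an unadjusted p of 0.05 and 1.5-fold ranged from 1 to 7 with an array left out (lower 1 to 5, higher 0 to 2). Such fits have 1 residual degree of freedom, and where a group is left with 1 array that array is assumed to vary like the others. With the replicate number as a block the count was 6, all lower: 4 probe sets of Igf1 and 1 each of Igf2 and Igfbp4. Their limma adjusted p ran from 0.145 to 0.319, and 4.80% of all probe sets passed the same threshold in that fit. The 1.5-fold cut left out brighter probe sets with a limma unadjusted p under 0.05 there. These were Igfbp5 1422313_a_at (0.53, SE 0.057), Igf1r 1452982_at (0.41, SE 0.097) and Igf1r 1426565_at (0.19, SE 0.059), all higher, and Igfbp4 1437405_a_at (-0.50, SE 0.13), lower. The labels do not say that a number marks a shared culture, day or batch. Deviations of same-numbered arrays from their group means correlated at r = 0.60 across the brighter probe sets, which are not independent, and with only 2 pairs this is a hint from the data and not from the design.

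Of 217 recomputed values of the 19 brighter IGF probe sets, 200 kept their direction and 17 turned direction, 13 of them with an array left out. None passed the adjusted threshold, which says little, since at most 1 probe set of the whole array did in the fits given above. With an array left out the ranges of those that turned were -0.055 to 0.52 (Igf1r 1428967_at), -0.12 to 0.51 (Igf1r 1426565_at), -0.24 to 0.19 (Igf2r 1424112_at), -0.24 to 0.48 (Igf2r 1424111_at), -0.89 to 0.37 (Igfbp3 1423062_at), -0.55 to 0.54 (Igfbp3 1458268_s_at), -0.091 to 0.67 (Igfbp7 1423584_at) and -0.60 to 0.93 (Igfbp7 1423585_at). Igf2r 1424112_at turned to 0.017 under median centring, and the mean of both Igf2r probe sets was 0.049. Igfbp3 1458268_s_at turned to 0.069 under quantile normalization and 0.030 under median centring. The cause was not tested. Averaging all probe sets of a gene, dim ones included, gave values over 1.5 times smaller than its brightest probe set for Igf2 (-0.44), Igf1r (0.24), Igfbp3 (-0.13), Igfbp5 (0.24) and Igfbp7 (0.15). The count of FoxO targets past the looser threshold was 3 with the block, 2 with dim probe sets left out and 2 under the trended and robust prior, against 5.07%, 5.98% and 3.69% of genes. That of signalling genes was 2 under quantile normalization and 0 under the ordinary linear model, against 2.73% and 1.25%.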
